A study of Mus musculus and Rattus norvegicus with 4 samples.

Results

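The regions described here are 287 weak MEF2A peaks of C2C12 cells that lie close to another peak, out of 2797 peaks in that list. They were chosen by 2 measured values, the score and the spacing of the peaks. A peak was counted as weak when the score given by the authors was under 100, and as closely paired when the gap to another peak on the same chromosome was under 1000 bp. Of the 1768 weak peaks, these 287 were closely paired and the other 1481 stood alone. Peaks chained by gaps under 1000 bp are called a run, and the 287 members fell into 185 runs. Together these runs held 406 peaks, because 119 peaks with a score of 100 or more shared a run with a member.

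The study mapped MEF2A by ChIP-exo, a form of chromatin immunoprecipitation in which an exonuclease digests DNA up to the bound protein. The main list comes from C2C12, a mouse skeletal myoblast line, with 10% serum for growth. The cells were kept for 48 h in differentiation medium with 2% horse serum, and their chromatin was precipitated with an antibody to MEF2A. A second MEF2A list comes from primary cardiomyocytes of newborn rats aged 1 to 3 days, and is used here only for the same rule in another library. Libraries made with normal rabbit IgG from both cell types are not analysed here. Each group has 1 library, so every value describes that library. Peaks carry a position and a score, with no read counts, so depth is unknown.

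MEF2A belongs to the myocyte enhancer factor 2 family of transcription factors, which bind short A/T-rich DNA as dimers and act with the MyoD family on muscle genes. Class IIa histone deacetylases hold MEF2 proteins in a repressed state, and phosphorylation by the kinase p38 raises their activity. Binding sites of such factors often come in groups at enhancers. In a peak list, 2 neighbouring peaks can be separate sites or a single bound region that the peak caller split. The list has no summits, so these cannot be told apart here.

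No genome sequence was used here, so the sequences shown are those before listed gene starts. Members overlapped the 250 bases before a listed start for 8 genes (Osgepl1, Znfx1, Cp, Ccnl1, Agk, Hdac9, Jarid2 and the noncoding Gm32011). The 5 windows below were chosen because a member covers at least 94 bases of them. A second Cp window is not shown because another listed Cp start lies inside it. Sequences are from RefSeq (GRCm38.p6), run 5′ to 3′ towards the start, and capitals mark the bases under a member peak.
Jarid2 (chr13:44731021-44731270, plus strand): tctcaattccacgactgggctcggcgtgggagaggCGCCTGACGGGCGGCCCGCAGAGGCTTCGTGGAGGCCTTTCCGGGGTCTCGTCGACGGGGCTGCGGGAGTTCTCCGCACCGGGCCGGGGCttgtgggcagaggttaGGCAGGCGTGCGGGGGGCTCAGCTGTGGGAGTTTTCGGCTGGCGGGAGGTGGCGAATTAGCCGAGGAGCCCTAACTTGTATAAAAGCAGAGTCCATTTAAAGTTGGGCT
Agk (chr6:40325228-40325477, plus strand): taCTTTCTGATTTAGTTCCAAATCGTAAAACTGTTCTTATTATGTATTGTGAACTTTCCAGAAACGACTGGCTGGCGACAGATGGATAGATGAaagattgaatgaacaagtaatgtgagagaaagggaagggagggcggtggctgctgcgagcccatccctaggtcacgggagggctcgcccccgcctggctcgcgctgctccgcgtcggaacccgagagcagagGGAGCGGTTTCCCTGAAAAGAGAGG
Osgepl1 (chr1:53313374-53313623, plus strand): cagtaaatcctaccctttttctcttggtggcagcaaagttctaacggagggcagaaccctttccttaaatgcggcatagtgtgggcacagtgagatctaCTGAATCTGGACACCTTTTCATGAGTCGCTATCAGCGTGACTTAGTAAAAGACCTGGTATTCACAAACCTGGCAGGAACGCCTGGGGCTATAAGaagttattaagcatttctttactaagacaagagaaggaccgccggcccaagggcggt
Hdac9 (chr12:34528890-34529139, minus strand): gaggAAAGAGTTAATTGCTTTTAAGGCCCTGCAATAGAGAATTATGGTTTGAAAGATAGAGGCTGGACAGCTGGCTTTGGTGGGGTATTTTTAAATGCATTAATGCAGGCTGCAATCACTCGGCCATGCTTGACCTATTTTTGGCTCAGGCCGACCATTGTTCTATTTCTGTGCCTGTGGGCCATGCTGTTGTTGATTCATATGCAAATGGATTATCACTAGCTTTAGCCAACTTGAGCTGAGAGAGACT
Znfx1 (chr2:167063016-167063265, minus strand): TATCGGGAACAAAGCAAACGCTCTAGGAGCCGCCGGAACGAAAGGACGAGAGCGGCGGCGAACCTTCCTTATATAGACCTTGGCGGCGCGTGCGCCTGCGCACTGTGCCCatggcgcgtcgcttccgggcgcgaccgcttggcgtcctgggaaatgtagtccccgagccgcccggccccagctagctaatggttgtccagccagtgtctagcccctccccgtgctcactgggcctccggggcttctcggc

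The capitals show 2 separate stretches in Jarid2 and in Agk, where both peaks of a pair reach the window, and a single stretch in the other 3. The gene spans of Jarid2, Agk, Osgepl1 and Hdac9 begin before these listed starts, so their windows lie inside the gene. The member over Hdac9 covers 246 of the 250 bases. The 5 windows differ in composition, with a G and C content of 64.8% in Jarid2, 52.8% in Agk, 47.6% in Osgepl1, 43.6% in Hdac9 and 66.0% in Znfx1, against a median of 52.4% over all 32851 listed windows. Both strands were searched for the outer letters of the MEF2 site, CTA and TAG separated by any 4 bases, which 3.20% of all windows hold, for the MEF2 box itself (1.69%), for the CArG box of serum response factor (1.47%), for the AP-1 letters TGANTCA (6.75%) and for the TEAD letters CATTCC (12.6%). The first pattern also covers those MEF2 boxes that end in TAG. Among the 5 windows shown, Hdac9 alone had a match, to the first pattern at base 219 and to TGANTCA at base 194, counted from 1 at the 5′ end, both under the member. Of the windows not shown, the second Cp window held a MEF2 box at base 221, outside the bases under its member, and CATTCC at base 55, under it. The first Cp window and that of Gm32011 held TGANTCA at bases 74 and 33, outside the few bases under a member. No match was found in the Ccnl1 window. A match or its absence in these windows is a description and does not show or deny binding by a factor.

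The scores and gaps of the members follow from the rule and are given as a description. Scores of the 287 members ran from 50.1 to 99.65, with a median of 63.7 (quartiles 56.6 and 74.5), and those of the 1481 lone weak peaks from 50.1 to 99.9, with a median of 62.3 (quartiles 55.5 and 73.9). The gap to the nearest peak had a median of 47 bp (quartiles 16 and 142 bp). It was under 10 bp for 39 members (13.6%), under 50 bp for 145 (50.5%), under 100 bp for 191 (66.6%) and 500 bp or more for 25 (8.71%). These counts are per member, so a gap between 2 members can enter once for each of them. Counted once per pair, the 162 runs of exactly 2 peaks had a median gap of 39 bp (quartiles 15.25 and 115 bp).

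**Figure D1:**
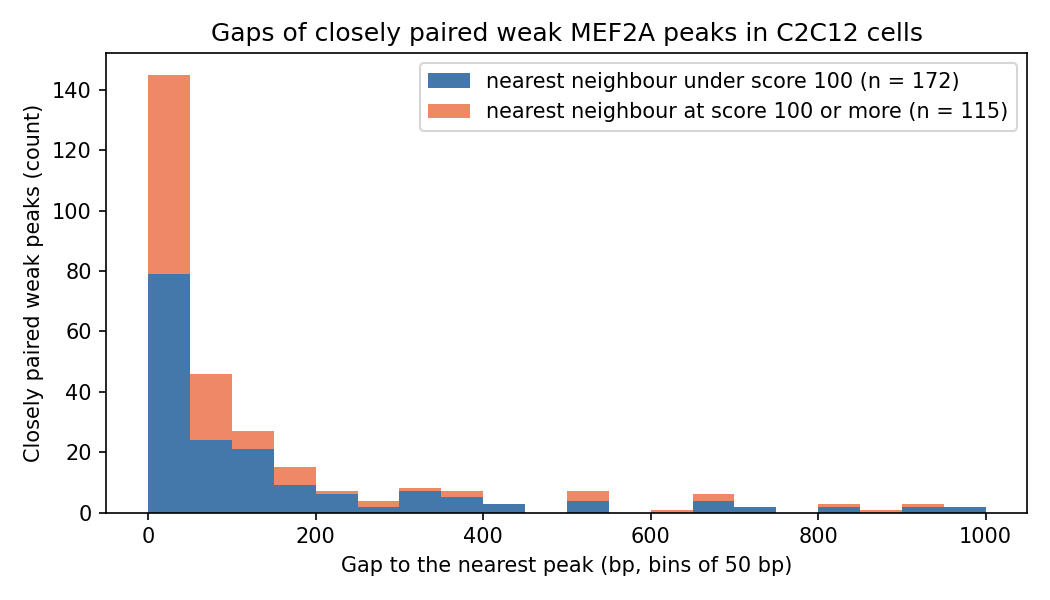
Gap in bp from each of the 287 closely paired weak peaks to its nearest peak, in bins of 50 bp, coloured by whether that neighbour scored under 100 (172 members) or 100 and more (115 members). The first bin is the tallest and counts fall away long before the limit of 1000 bp.

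The highest-scoring members had scores of 96.8, 97.1, 98.7, 99.0 and 99.65, and the lowest-scoring closely paired peaks outside the limit had 100.2, 100.2, 100.3, 100.9 and 101.5. The member with 99.65 lay inside C2cd5, that with 99.0 was 0.73 kb from Tnfsf18, a cytokine of the tumour necrosis factor family, and that with 98.7 was nearest to Plod2, a lysyl hydroxylase that modifies collagen. The widest gaps inside the limit were 990 bp (at Tnnt3), 949 bp (nearest gene Actbl2, 312 kb away) and 939 bp (nearest gene Olfr161, 347 kb away). The last 2 pairs were too far from these genes to be assigned to them. The narrowest gaps among lone weak peaks were 1017, 1031 and 1078 bp. Lone weak peaks with a gap of 1000 to under 2000 bp numbered 13.

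Of the 185 runs, 162 held 2 peaks, 17 held 3, 3 held 4, 1 held 5 and 2 held 7. Every peak was weak in 73 runs (39.5%), while 112 runs held at least 1 peak of score 100 or more. The nearest neighbour of a member was itself weak for 172 members and stronger for 115. Counted per member, gaps had a median of 62 bp to weak neighbours and 36 bp to stronger ones. Counted once per pair in runs of exactly 2 peaks, the medians were closer, at 45.5 and 36.5 bp. These stronger neighbours scored from 100.2 to 2067 with a median of 175, and 48 members lay beside a neighbour of 200 or more.

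The 162 runs of exactly 2 peaks show how pairs are built. In 66 pairs both peaks were weak, with a median ratio of the stronger to the weaker score of 1.16 and a ratio under 1.5 in 59 pairs. The score limits leave such pairs little room to differ. In the other 96 pairs a weak peak lay beside a stronger one, with a median ratio of 2.76 and a highest of 32.1. The weaker peak lay on the lower-coordinate side in 40 of the 66 weak pairs and in 51 of the 96 mixed pairs. The 66 weak pairs include a pair with equal scores of 53.88, which has no weaker peak and is not among the 40. Peak centres were a median of 185 bp apart in weak pairs and 227 bp apart in mixed pairs. The gaps between peak edges went the other way, with medians of 45.5 bp in weak pairs and 36.5 bp in mixed pairs.

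**Figure D2:**
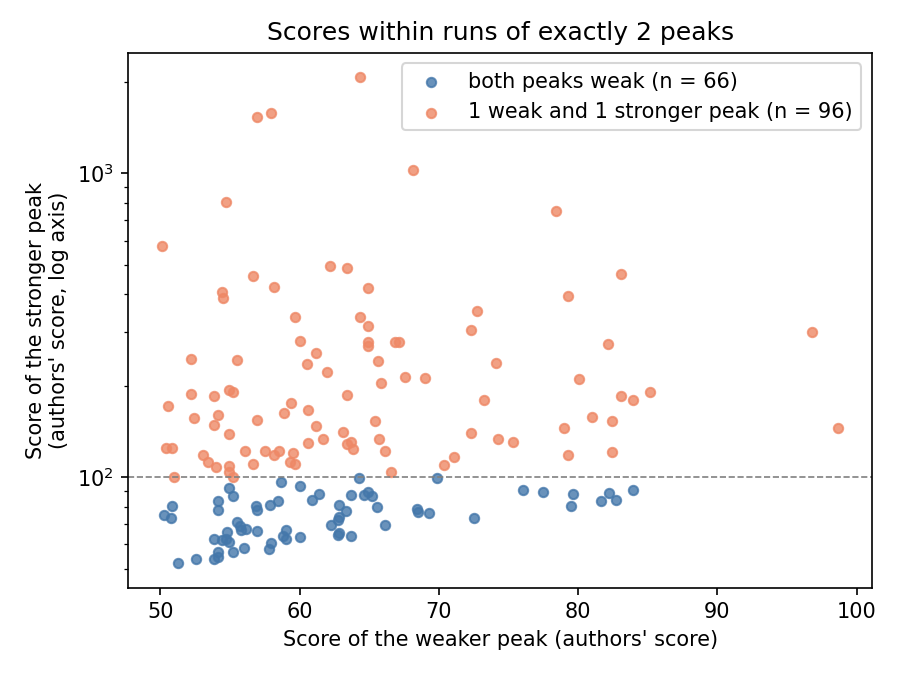
Scores of the 2 peaks in each of the 162 runs of exactly 2 peaks, with the weaker peak on the x axis and the stronger on the y axis (log scale). The 66 pairs of weak peaks lie under the dashed line at 100, and the stronger peak of the other 96 pairs reaches 2067.

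Width was not part of the rule. The median width was 118 bp among members, whose quartiles were 108 and 138 bp, and 120 bp among lone weak peaks, whose quartiles were 112 and 150 bp. Weak peaks of mixed pairs had a median of 118 bp, as against 236 bp for their stronger partners. Members of weak pairs had a median of 118.5 bp. The library was size-selected at 120 to 160 bp. No test was run on widths, and any bearing of the size selection on them was not tested.

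The 5 highest-scoring partners stood in runs with 1 or 2 members. Inside Pakap, a gene of a kinase anchoring protein, a member of score 64.3 (chromosome 4, 57588965 to 57589082) lay 26 bp from a peak of score 2067. Near Chit1, a chitinase gene, a member of 58.0 lay 231 bp from a peak of 1582, and inside Gipc2 a member of 56.9 lay 128 bp from a peak of 1529. The fourth partner (score 1164) was 75.2 kb from Gm51579, with members of 56.9 and 54.7 next to it on the same side. The fifth (score 1020) lay 8.88 kb from Dlc1, with a member of 68.2 at 26 bp. The 6 members of these 5 runs scored from 54.7 to 68.2, while their partners scored from 1020 to 2067.

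In 8 runs the smallest gap was a single base pair (1 bp), so that the peaks all but touched. The pair inside Creb5, a CREB-family transcription factor gene, had scores of 88.7 and 82.2. The others joined a member to a stronger peak, at Nbeal1 (member 54.4, partner 405), Smyd3 (82.2 and 274), Pappa (73.2 and 180), Insr (60.5 and 236) and Ccn4 (60.6 and 129), or lay farther than 100 kb from a coding gene in 2 cases (56.6 and 459, 59.7 and 336).

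The next question was whether closely paired weak peaks lie in other places than lone ones. Each run was counted once as a close-pair region, because the peaks of a run share a position. Gene spans came from RefSeq for the mm10 assembly, and the table gives no exons, so exons, introns and untranslated regions were not distinguished. A region or lone peak counted as inside a span when any part of it overlapped the span. Runs were longer than lone weak peaks (median 399 against 120 bp), and length was not adjusted for. Of 185 close-pair regions, 91 were inside a protein-coding span (49.2%, exact 95% interval 41.8 to 56.6%), as were 707 of 1481 lone weak peaks (47.7%, 45.2 to 50.3%). The difference was 1.45 percentage points (95% interval -6.10 to 9.03, two-sided Fisher exact p = 0.755, Benjamini-Hochberg adjusted p = 1 over 4 location classes).

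The other 3 classes differed by no more than their errors. An end of a protein-coding span was within 1 kb of 13 close-pair regions (7.03%, 3.79 to 11.7%), and of 106 lone weak peaks (7.16%, 5.90 to 8.59%). That is a difference of -0.130 points (95% interval -3.34 to 4.65, Fisher exact p = 1, adjusted p = 1). Over 100 kb from any protein-coding span lay 34 regions (18.4%, 13.1 to 24.7%), against 268 lone weak peaks (18.1%, 16.2 to 20.2%), a difference of 0.282 points (-5.04 to 6.76, Fisher exact p = 0.919, adjusted p = 1). Other annotated genes were overlapped by 29 regions, 26 of them over a long noncoding RNA gene (29 of 185 is 15.7%, 10.8 to 21.7%), and by 188 lone weak peaks (12.7%, 11.0 to 14.5%). This difference was 2.98 points (-1.89 to 9.12, Fisher exact p = 0.248, adjusted p = 0.993).

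**Figure D3:**
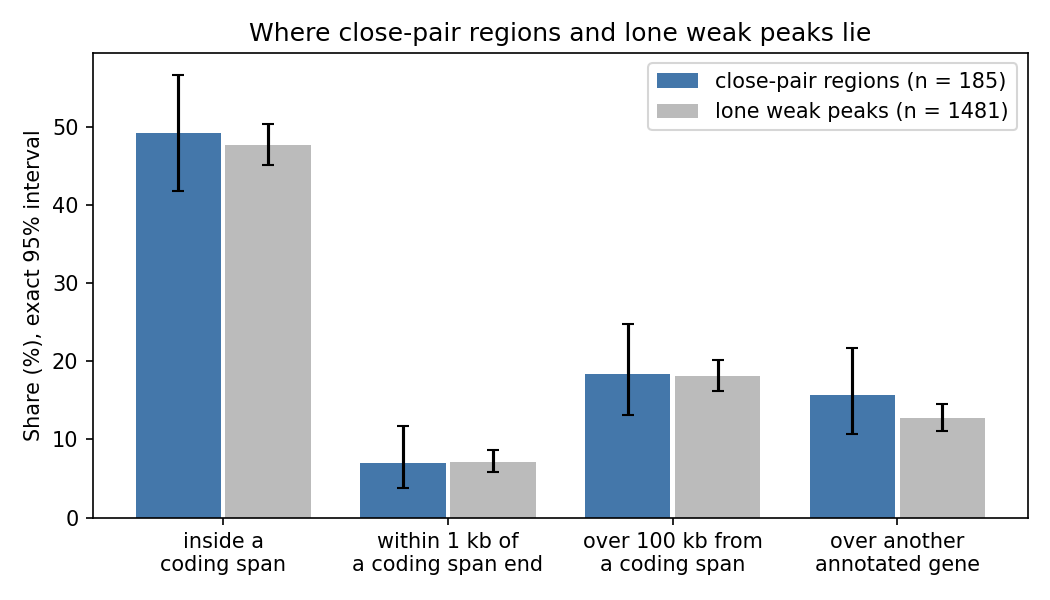
Share (%) of the 185 close-pair regions and the 1481 lone weak peaks in each of 4 location classes, with exact 95% intervals as error bars. In each class the interval of the close-pair regions contains the share of the lone weak peaks.

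A p that misses the threshold does not show that both kinds of peak are placed alike, and the intervals still allow differences of several percentage points. The regions come from 1 library, and the tests count regions of that library. With each of the 287 members counted instead of each region, 44.9% were inside a coding span. Runs of weak peaks alone lay inside a coding span in 31 of 73 cases (42.5%, exact 95% interval 31.0 to 54.6%). Runs with a stronger peak did so in 60 of 112 (53.6%, 43.9 to 63.0%). The difference between these 2 kinds of run was not tested.

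A coding gene lay within 100 kb, and the nearest was taken, for 232 of the 287 members (80.8%), and for 1213 of the lone weak peaks (81.9%). The members named 149 genes, which is 0.681% of the 21883 protein-coding genes, and the lone weak peaks named 1062 (4.85%). All C2C12 peaks together named 7.72% of the coding genes. Both kinds of weak peak were assigned to 43 genes, or 28.9% of the genes with a member and 4.05% of those with a lone weak peak. A peak outside these runs was also assigned to 56 of the 149 genes (37.6%). Being the nearest gene is no evidence of regulation by MEF2A.

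Dusp6, the phosphatase gene that inactivates ERK and is named in the title of the series, had a close pair upstream. The peaks at 99250796 to 99250893 and 99250938 to 99251065 on chromosome 10 were 44 bp apart, had scores of 60.0 and 93.5, and lay 12.3 and 12.2 kb before the listed start. A lone weak peak of score 68.2 lay 97 bp before the start and another of 58.9 lay 34.6 kb after it. All 4 peaks of the gene were therefore weak, and the highest score was in the close pair. Dusp6 was the single gene with a member among 52 listed MAPK genes and phosphatases (1.92%), 11 of which (21.2%) had a lone weak peak. Over all coding genes, 0.681% had a member and 4.85% a lone weak peak, the background for this list and those below. No list was tested against it.

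MEF2 genes and cofactors had members at 3 of 34 genes (8.82%, against 0.681% of all coding genes), and lone weak peaks at 7 (20.6%, against 4.85%). Hdac9, a class IIa histone deacetylase that represses MEF2, held a pair of scores 79.5 and 80.2, 213 bp apart. The first, at 34528818 to 34529135 on chromosome 12, covered a listed start inside the gene span, and the second lay 460 bp before that start. The scores differed by less than 1, and no other C2C12 peak was assigned to Hdac9. Mef2c (chromosome 13, 83504017 to 83667079) contained a member of 51.0, 32 bp from a peak of 100.2 that stands just outside the weak class, 30.1 kb after the nearest listed start. Mef2a, Mef2b and Mef2d had no member. Tead1, a TEAD-family factor gene, had a pair of 83.9 and 90.9, 2 bp apart and 16.0 and 15.8 kb from its span.

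Contractile genes gave a single gene with a member, Tnnt3, out of 68 (1.47%), while 15 (22.1%) had a lone weak peak. Tnnt3 encodes the fast skeletal troponin T of the thin filament. Its peaks, of scores 68.5 and 76.7, lay on chromosome 7, the first 36 bp outside one end of the gene and the second 955 bp inside it. Both also lie within the noncoding Prr33. The gap of 990 bp was the widest of all members, so this pair stands at the edge of the rule. Among costamere and adhesion genes 3 of 46 (6.52%) had a member and 10 (21.7%) a lone weak peak. They were Plec, encoding the cytolinker plectin (74.1, beside a peak of 238), Sspn, encoding sarcospan of the dystrophin complex (54.7, beside a peak of 804), and Fhl2, a LIM-domain cofactor gene (61.7 at 54.6 kb, beside a peak of 134). All 3 lay beside a stronger peak.

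Of 46 myogenic regulators and differentiation genes, Ncam1 alone had members (2.17%), and 10 genes (21.7%) had a lone weak peak. Ncam1 encodes a neural cell adhesion molecule of myoblasts, and its pair of 62.8 and 80.8 lay 10 bp apart inside the span, and also inside the noncoding Gm11149. Asb5 and Hspb7 are outside the lists, and Asb5 was chosen after its values were seen. Asb5, an ankyrin repeat gene of muscle, had members of 64.3 and 62.8, which lay 1934 and 1701 bp before the listed start. Hspb7, a small heat shock protein gene of heart and skeletal muscle, had members of 74.3 and 93.2 at 0.40 and 0.78 kb beyond the far end of its span. A peak of 492 lay between them.

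Matrix genes had members at 3 of 42 (7.14%), and 14 (33.3%) had a lone weak peak. Ccn1, a matricellular gene of integrin signalling (chromosome 3, 145646971 to 145649985), held a pair of 79.6 and 88.1, 1.49 and 0.97 kb after the start and 376 bp apart. A stronger peak of 198 lay 1.75 kb before the start and a lone weak peak of 51.0 lay 3.72 kb after it. Ccn4, of the same family, had members in 2 runs, a pair of 60.5 and 57.9 at 2.39 and 2.30 kb from the span and a member of 60.6 inside it beside a peak of 129. A stronger lone peak of 645 lay 7.16 kb from the span. Lox, which crosslinks collagen and elastin, had weak peaks of 55.2 and 56.6 at 5.90 and 6.82 kb.

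The remaining lists had few members or none. Fgf7 (96.6) was the single growth factor gene of 40, and its peak also lies inside Fam227b. In the smooth muscle list of 20, 2 genes had a member (10.0%) and 6 had a lone weak peak (30.0%). This list, of another cell type, had the highest member share of the 15 lists, resting on 2 genes. They were Npnt, a matrix ligand of integrins (71.1, 12.9 kb before the start, beside a peak of 116), and Lpp (72.3 at 66.2 kb, beside a peak of 305). No member was assigned to any immediate early, calcium handling, energy metabolism, endothelial, neuronal, hepatocyte or leukocyte gene in the lists. Lone weak peaks were assigned to 4, 6, 5, 2, 1, 0 and 0 genes of these lists, in that order. In all, 15 of 534 listed genes (2.81%) had a member and 94 (17.6%) had a lone weak peak. With 0.681% of all coding genes named by members, counts in lists of this length are small, and no list was tested. No expression values were used, so the cell type could not be checked against markers.

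**Figure D4:**
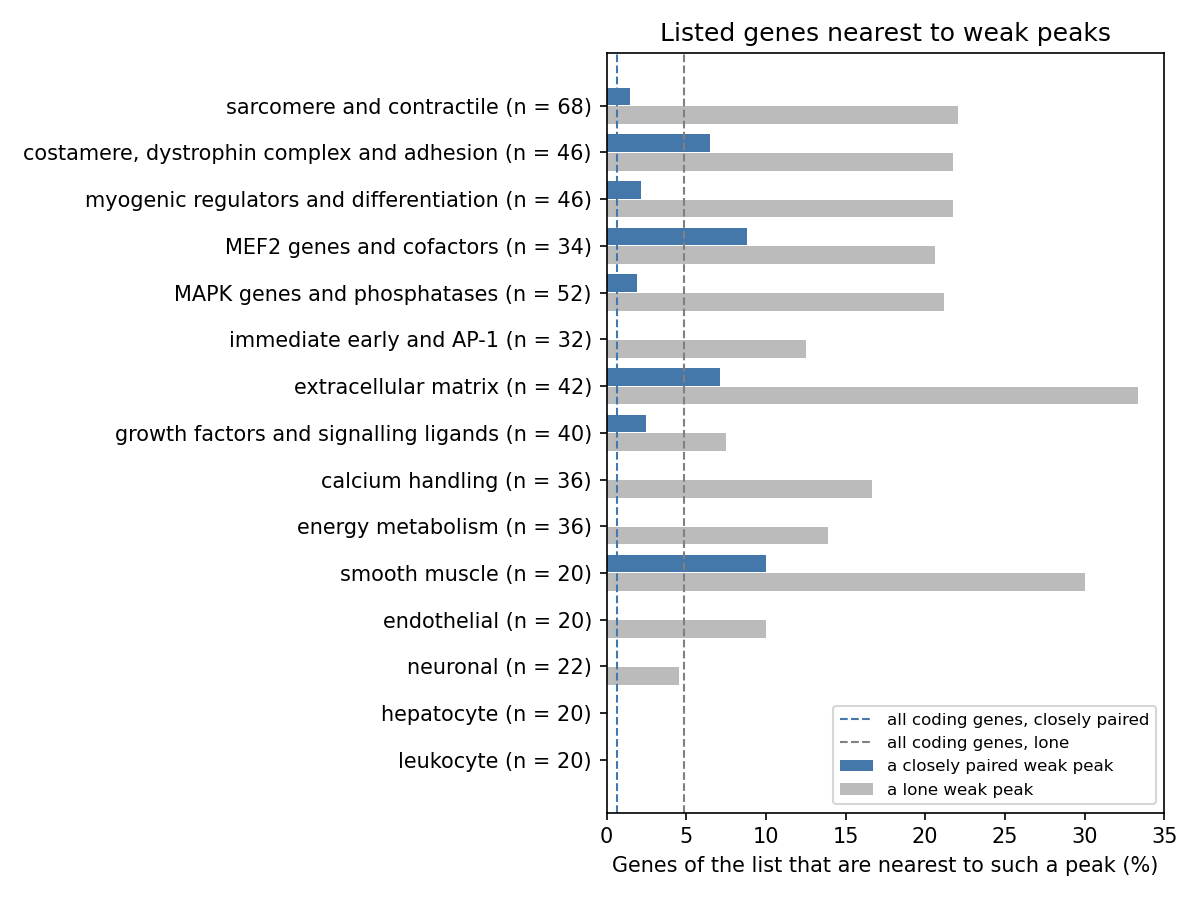
Share (%) of the genes of each list that are the nearest coding gene, within 100 kb, to a closely paired weak peak and to a lone weak peak, with n the genes in the list. Dashed lines mark the shares over all coding genes, 0.681% and 4.85%. Members were assigned to genes of 8 lists, and 7 lists had none.

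The 13 close-pair regions within 1 kb of a coding gene end include those at the Jarid2, Agk, Osgepl1 and Znfx1 starts shown above. At Jarid2, which encodes a component of Polycomb repressive complex 2, the pair scored 69.0 and 55.7 and was 16 bp apart. One peak lay 126 bp before the listed start (44731271 on chromosome 13) and the other covered it. Agk, a mitochondrial lipid kinase gene, had peaks of 56.1 and 67.5, the first 158 bp before the start and the second over it. At Osgepl1, a gene of mitochondrial transfer RNA modification, the peaks scored 73.3 and 72.5 and lay 276 and 58 bp before the start. These 3 pairs were made of weak peaks only.

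Znfx1, a zinc finger helicase gene, had a member of 82.5 at 141 bp before the start and a peak of 153 at 361 bp, both also inside the noncoding Zfas1. Cp, encoding the copper-binding ceruloplasmin, had a member of 64.3 over a listed start. A peak of 337 lay 0.76 kb after another listed Cp start, the one nearest to that peak. Susd1 held a member of 58.9 at 0.73 kb from an end, and Lpxn, encoding leupaxin of focal adhesions, members of 50.3 and 74.95 at 850 and 4 bp from an end. Vmp1, 4931408C20Rik, Tnfsf18, Hspb7, Tnnt3 and Ccn1 complete the 13. In Ccnl1, a cyclin gene, members of 63.6 and 64.5 flanked a peak of 154 at 238 and 569 bp before a listed start that lies inside the span.

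**Figure D5:**
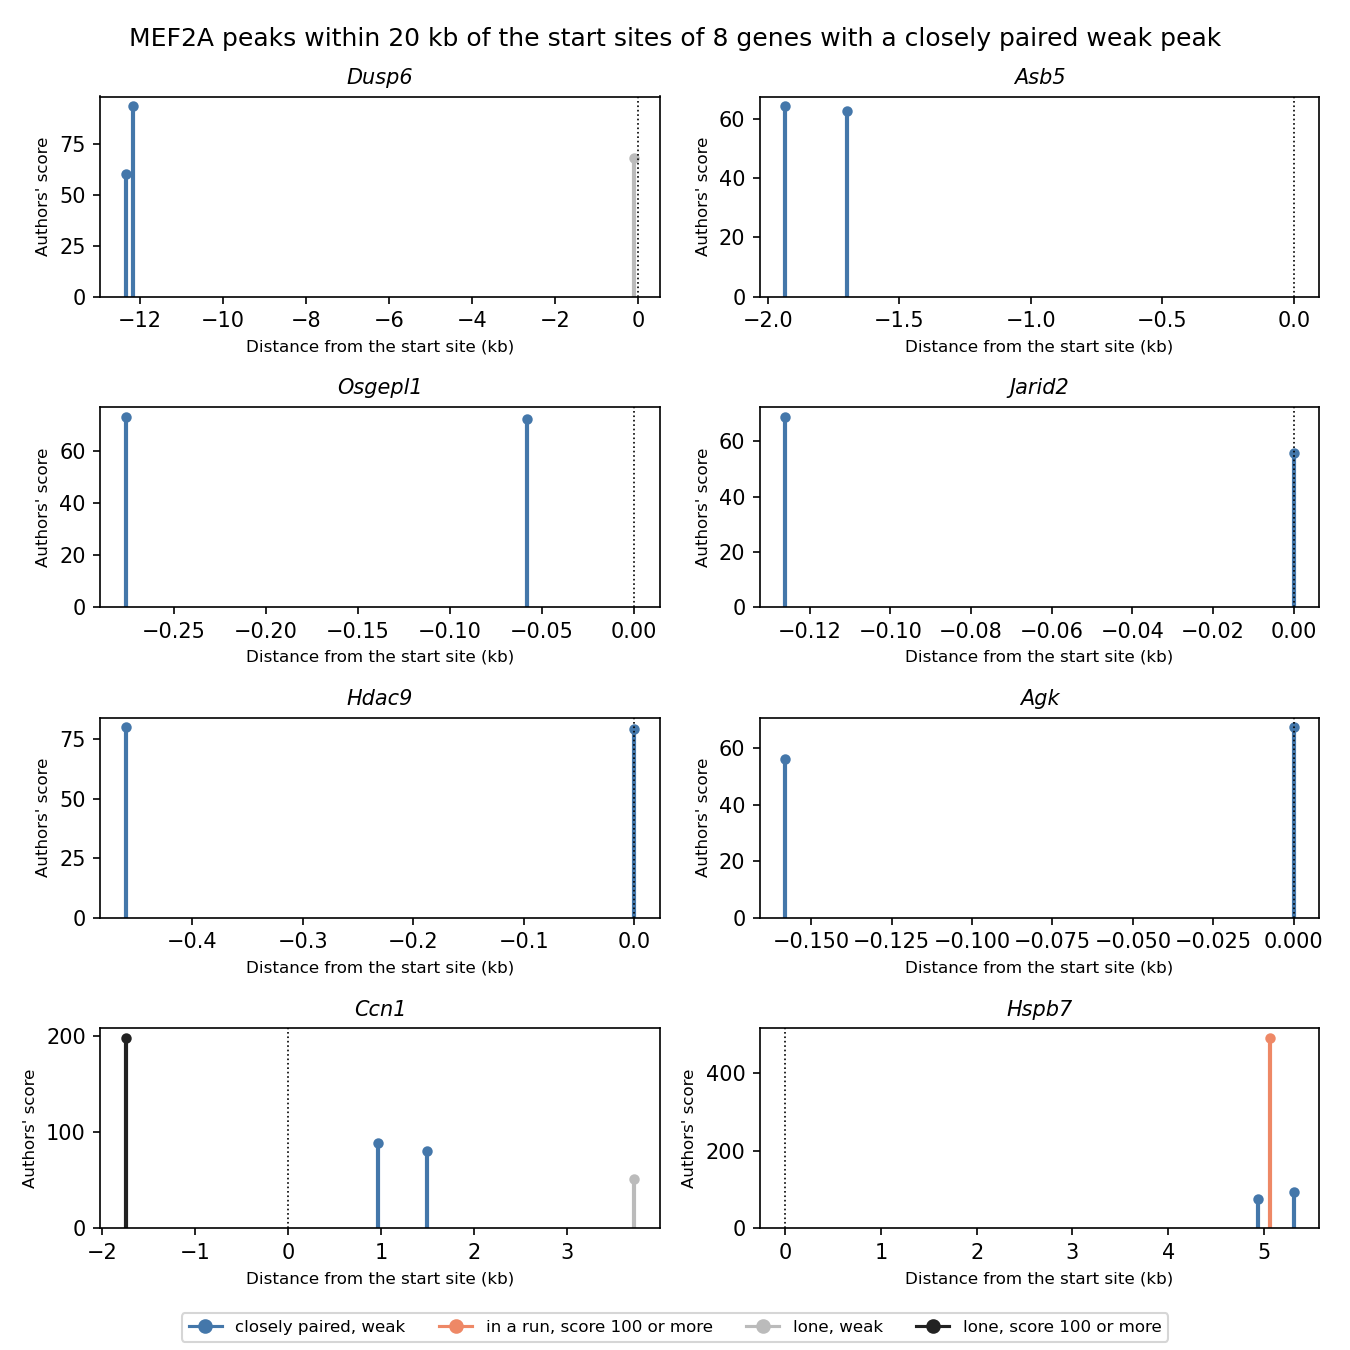
MEF2A peaks assigned to 8 genes with a member and within 20 kb of the nearest listed start of the gene. Distance from the start in kb is on the x axis (positive in the direction of transcription) and the authors' score on the y axis. Peaks assigned to other genes are not drawn. Members are drawn in blue and stand near the start in Jarid2, Agk, Osgepl1 and Hdac9, about 12 kb upstream in Dusp6, and around a peak of 492 in Hspb7.

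Both runs of 7 peaks lay beside noncoding RNA genes. A run of 7 peaks, 6 of them members with scores from 52.1 to 89.0, covered 5800164 to 5803672 on chromosome 19. It overlaps the first part of Malat1, an abundant nuclear long noncoding RNA gene on the minus strand, and its strongest peak (161) covers the Malat1 start at 5802672. The neighbouring gene Neat1, whose RNA builds nuclear paraspeckles, held a run of 3 peaks (56.2, 84.5 and 139). The member of 84.5 was 435 bp wide, the widest of all members. A member of 59.3, beside a peak of 112, lay just outside Malat1 at 5794771 to 5794875.

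The second run of 7 peaks lay inside Vmp1, an autophagy gene, on chromosome 11 at 86584208 to 86587266. It held 4 members, with scores of 54.0, 74.8, 72.3 and 69.1, and 3 stronger peaks of 221, 266 and 145. Its nearest member was 50 bp from the hairpin of Mir21a (86584067 to 86584158, minus strand). The mature miRNAs of this hairpin are printed because no other run lay within 1 kb of a listed miRNA, and capitals mark the seed, bases 2 to 8 (RefSeq, GRCm38.p6).
mmu-miR-21a-5p: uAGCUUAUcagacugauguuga
mmu-miR-21a-3p: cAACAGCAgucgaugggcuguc

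The 2 arms have different seeds. The run extends upstream of the hairpin relative to its strand. Vmp1 also held a second run of a member of 59.4 and a peak of 175, 19598 bp inside an end of the span.

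Chromosome 4 had the most members, 37 in 20 runs. Of these, 16 members in 5 runs lay between 145437532 and 147509589, inside Gm42346 and Zfp982 and near Zfp987 and Zfp978. Genes named Zfp encode zinc finger proteins, many of which sit in clusters of similar copies. All 16 of these members were in runs of weak peaks only, with a highest score of 88.3. Members were 26.8% of the weak peaks of chromosome 4, and 17.6% outside this window, a window chosen after the values were seen. The share ran from 5.88% on chromosome 5 to 28.3% on chromosome 19, which holds the Malat1 and Neat1 runs, and was 2 of 5 on chromosome Y.

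A few other runs were long. On chromosome 13 a run of 5 peaks over 3740 bp (119613806 to 119617545), between Tmem267 and Ccl28, held wide members of 51.8, 66.3 and 51.5. The run of 4 peaks on chromosome Y, 1.55 kb or more from Gm52481, alternated members of 60.0 and 72.5 with peaks of 135 and 181. At Dnm3, a dynamin gene named after its values were seen, a member of 50.6 lay inside the noncoding Dnm3os, 664 bp from a peak of 171. Coding genes with more than 1 run included Ccn4, Dnm3, Gm42346, Map3k7cl and Vmp1.

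The same rule applied to the rat cardiomyocyte list gives a second value for the paired share. In the C2C12 list 287 of 1768 weak peaks were closely paired (16.2%, exact 95% interval 14.5 to 18.0%), and in the rat list 122 of 1562 (7.81%, 6.53 to 9.25%). Scores are set within each list, so these shares were not tested against each other. The lists also differ in size, with 2797 peaks in C2C12 and 1868 in rat. The shares were not adjusted for the number of possible partners. Rat members had a median gap of 35.5 bp and 77.0% had a gap under 100 bp, and their median width was 114.5 bp. They formed 79 runs, 35 of them (44.3%) of weak peaks only.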

How the data were processed

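Per the file contents, the authors' 2 peak lists give chromosome, start, end, name and a deposited score for every peak. No header gives the scale of this score. The submitters' processing notes list MACS 1.4.2, BWA 0.5.9, SAMtools, Picard and CASAVA 1.7.0, with the builds rn5 and mm10 and no settings. The sources used here do not say whether IgG was the control. Deposited starts were taken to count from 0, the BED convention, and 1 was added for printing. A gap is the start of the later peak minus the end of the earlier, and each list belongs to 1 library.

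Genes and start sites came from RefSeq tables of GRCm38.p6, the assembly behind mm10. The start table is not complete, and distances to a start are given only where the nearest gene has one. The nearest coding span up to 100 kb away gave a peak its gene, and a peak inside several spans got them all. Intervals of shares are exact binomial and those of differences are Newcombe intervals. They cover counting error only, and peaks of 1 library are not replicates. The members, gene lists and classes were chosen with earlier results of these data known. Genes named are list members, genes with an end within 1 kb of a member, those nearest to the longest runs, strongest partners, widest members, score limit and extreme gaps, genes whose start window overlaps a member, Dusp6 and the MEF2 genes. Asb5, Dnm3, Map3k7cl and the noncoding and zinc finger genes at dense runs were named outside this rule, after their values were seen. All 534 listed symbols were found. A withheld gene is not reported here. The calls were checked on simulated data, with planted runs and a planted difference in shares far larger than those seen here. This check does not show that differences of a few points would be found. Alternatives were other gap, score, window and distance limits, other kinds of run, all annotated genes and narrow peaks. Tests used scipy 1.17.1 and statsmodels 0.14.6, with pandas 2.3.3, numpy 2.4.6 and matplotlib 3.10.9 under Python 3.11.15.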

Additional observations from a re-analysis of the deposited data

How the results depend on the processing

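None of the 4 location classes passed the threshold in any alternative (Fisher's exact test, adjusted p from 0.403 to 1), so the direction of these small differences carries no call. The difference in percentage points, close-pair regions minus lone weak peaks, changed sign in 8 cases. For regions inside a coding span it was -2.88 with weak set at a score under 75, -5.27 in runs with no peak of 100 or more and -2.79 with each member peak counted. For regions within 1 kb of a gene end it was 3.80 in runs with no peak of 100 or more and 0.752 with all annotated genes. For regions over 100 kb from a gene it was -0.640 at a gap limit of 2000 bp, -0.195 in runs of exactly 2 peaks and -1.27 at a limit of 50 kb. Dropping peaks over 1000 bp wide changed nothing in these 4 classes. Members numbered 262, 300 and 217 and their genes 139, 157 and 127 with gap limits of 500 and 2000 bp and with weak set at a score under 75. A limit of 10 kb left 110 genes. The paired share of weak peaks stayed between 14.8% and 17.0%. Read depth is not known, and without replicates the recurrence of a weak peak cannot be judged. No paired analysis was possible because there is a single library per group.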
